A study of Homo sapiens with 12 samples.

Results

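The transcriptome of A375 cells treated with DdBIC was compared with that of untreated A375 cells. These were 6 of the 12 RNA-seq samples of the series, 3 labelled DBIC and 3 labelled Ctrl, chosen by their treatment label. A375 is an established human melanoma line, and all groups carry the genotype WT in the labels. DdBIC, written DBIC in the labels, is the dodecyl ester of a benzimidazole carboxylic acid, which the study used to induce pyroptosis, a lytic form of cell death. The other 2 groups received hemin, the oxidised form of heme, alone or together with DdBIC. The dose and duration of the treatments behind these libraries, and whether the Ctrl cells received the solvent, are not given in the sources used here. Nor do they say whether the 3 samples of a group came from separate cultures, so the p-values measure the spread between these samples, which may be technical. The comparison asked which genes beyond those of the integrated stress response differed after DdBIC alone.

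Immediate early genes are those that cells switch on within minutes of a stimulus, without making new protein first. Many encode transcription factors of the EGR, FOS, JUN and NR4A families, and others encode phosphatases and RNA-binding proteins that end the same signals. NF-kB is a family of transcription factors held in the cytoplasm by IkB proteins. When these are degraded it enters the nucleus and drives genes for cytokines, chemokines, survival factors and its own inhibitors.

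The libraries held 38781606 to 42317541 counted reads. The unit of level is CPM, a gene's count divided by the total of its library and multiplied by 1000000, with the totals scaled by edgeR's TMM factors. Of 20263 genes in the table, 14287 passed the filter on low counts and entered the quasi-likelihood test of edgeR. At a Benjamini-Hochberg adjusted p under 0.05, 2859 genes were higher in the DdBIC libraries (20.0% of those tested) and 2451 were lower (17.2%). With upper-quartile scaling in place of TMM the test called 2310 genes higher and 3472 lower, and the median log2 fold change of all tested genes moved from -0.01 to -0.07. The larger changes were mostly rises. A change of at least 2-fold was called for 441 higher genes (3.09%) and for 61 lower genes (0.427%), and 125 of the rises against 5 of the falls were at least 4-fold. In bulk RNA, fewer cells that express a gene and less of its RNA per cell cannot be told apart. Of the 12 melanoma and melanocyte markers, 8 had a mean of at least 1 CPM, among them SOX10 and PRAME, whereas the pigment genes PMEL, MLANA, TYR and DCT were below that. The summed markers of leukocytes were at 31 to 31.7 CPM in the Ctrl and 25 to 30.1 CPM in the DdBIC libraries. Of these 13 markers, 6 had no count in any of the 6 libraries, among them PTPRC, CD3E, CD3D, MS4A1 and TYROBP. The fibroblast markers summed to 31.2 to 32.6 and 24.7 to 25.7 CPM, the endothelial ones to 8.44 to 11 and 9.27 to 10.3 CPM, and the keratinocyte ones to 53.1 to 56.4 and 59 to 66.1 CPM, with KRT5, KRT1 and DSG3 at 0. The part of these markers in the results was not tested.

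Most of the immediate early transcription factors tested were higher. Of the 30 genes on this list 29 were tested, and 25 of them were higher (86.2%, against 20.0% of all tested genes). Of these 22 rose by at least 2-fold, and the list's median log2 fold change was 2.07 against -0.01 for all tested genes. The 4 genes not called were FOSL2, MAFF, MYC and SNAI2, and NPAS4, the member that did not pass the filter, had no count in any of the 6 libraries.

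The EGR genes encode zinc finger factors that bind GC-rich sites. EGR1 was at 23.8, 30.3 and 28.2 CPM in the Ctrl libraries and at 2878, 2189 and 2412 CPM in the DdBIC libraries, a log2 fold change of 6.51 ± 0.15 (SE, adjusted p = 1.76e-09). EGR2 stood at 0.397, 0.428 and 0.691 CPM without and at 82.9, 53.1 and 71.4 CPM with DdBIC (7.09 ± 0.25, adjusted p = 9.08e-09). Every DdBIC library was far above every Ctrl library for both genes, and EGR2 was below 1 CPM in each Ctrl library. EGR3 rose from 23.9 to 24.96 CPM to 299.5 to 384 CPM (3.81 ± 0.12). EGR4 rose from 0.695 to 1.30 CPM to 8.57, 19.7 and 29.4 CPM (4.37 ± 0.48, adjusted p = 6.95e-05). The DdBIC libraries differed by 3.43-fold among themselves for EGR4, but none reached down to the Ctrl range. NAB1 and NAB2, corepressors that bind EGR factors, rose by 0.98 ± 0.10 and 0.46 ± 0.03 on the log2 scale.

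The stretch before the EGR1 start is printed because it holds a pair of CArG boxes, the sites of serum response factor, through which ERK signalling reaches many immediate early genes. The 150 bases before the start are given 5′ to 3′ on the gene's strand, from RefSeq on GRCh38.p14, with the CArG boxes in capitals.
EGR1 (chr5:138465329-138465478, plus strand): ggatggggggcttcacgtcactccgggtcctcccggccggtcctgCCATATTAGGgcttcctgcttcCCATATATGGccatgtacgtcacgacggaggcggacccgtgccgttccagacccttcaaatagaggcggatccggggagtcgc
The matches begin at -105 and -83, counted from the base before the start as -1. In a search of both strands of the 250 bases before each start, 1.16% of the 35116 RefSeq windows held a CArG box. It was in 1.58% of the 11358 tested genes that had at least 1 window. Of the immediate early transcription factors 22 had a window, and 3 of these held a match (13.6%), EGR1, EGR2 and SRF. EGR2 had a match at -71 in 1 of its 3 windows. SRF, the gene of serum response factor itself, had matches at -30 and -10 in 1 of its 2 windows, and its level went from 77.5 to 80.9 CPM to 91.2 to 99.6 CPM (0.27 ± 0.04, adjusted p = 0.000223). A match is a run of letters, not a measured site of binding.

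The AP-1 factors are dimers of FOS and JUN proteins. JUN was at 41.96, 39.1 and 41.6 CPM in the Ctrl and at 2242, 1720.5 and 2033 CPM in the DdBIC libraries (5.61 ± 0.11, adjusted p = 2.59e-10). FOS went from 4.09, 2.29 and 5.12 CPM to 214, 123 and 193 CPM (5.52 ± 0.34, adjusted p = 2.1e-06). For each gene the lowest DdBIC library was far above the highest Ctrl library. FOSB rose by 4.11 ± 0.14, JUNB by 3.65 ± 0.10 and JUND by 2.09 ± 0.06 on the log2 scale. FOSL1, an AP-1 gene that ERK signalling keeps active in many melanoma lines, was already at 369.5 to 427 CPM without treatment and rose to 690.3 to 939 CPM (0.98 ± 0.11, adjusted p = 5.87e-05). FOSL2 was not called, with 25.98, 58.6 and 56.7 CPM against 115, 47.01 and 102 CPM (adjusted p = 0.158), and its groups overlapped. ATF3, a stress-induced partner of JUN that also belongs to the integrated stress response, was at 9.80, 6.07 and 7.78 CPM and then at 245, 174 and 89.5 CPM (4.42 ± 0.39, adjusted p = 2.43e-05). Its DdBIC libraries spread by 2.74-fold but stayed clear of the Ctrl libraries.

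The NR4A genes encode orphan nuclear receptors, and NR4A1 encodes Nur77, the protein the study names as the target of DdBIC. NR4A1 was at 204, 199 and 208 CPM in the Ctrl and at 1634, 1551 and 1511 CPM in the DdBIC libraries (2.94 ± 0.05, adjusted p = 1.1e-10). Its libraries were close within each group, with a 1.04-fold range in Ctrl and a 1.08-fold range in DdBIC. NR4A2 rose from 7.64 to 9.67 CPM to 50.5 to 59.97 CPM (2.71 ± 0.11) and NR4A3 from 1.09 to 1.54 CPM to 24.9 to 31.6 CPM (4.32 ± 0.16), so all 3 receptors were higher. Members of the Krüppel-like family, zinc finger factors of growth and differentiation, were also higher. KLF5 rose by 2.07 ± 0.04, KLF10 by 2.04 ± 0.10, KLF6 by 1.69 ± 0.04, KLF4 by 1.67 ± 0.08 and KLF2 by 1.15 ± 0.11 on the log2 scale. CSRNP1 rose by 2.59 ± 0.08 and IRF1, an interferon regulatory factor that NF-kB also induces, by 1.69 ± 0.08. CREB5, which is not on the list and is a relative of the JUN partner ATF2, was among the 30 largest rises at 2.91 ± 0.14.

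MYC, a gene induced by growth factors, was not called. It was at 2.28, 15.1 and 2.79 CPM in the Ctrl and at 7.72, 4.11 and 3.78 CPM in the DdBIC libraries (-0.37 ± 0.68, adjusted p = 0.71). The second Ctrl library stood apart from the other two, and without it the log2 fold change was 1.03 (adjusted p = 0.0894). MAFF, a small MAF factor, was at 56.98, 14.4 and 14.7 CPM and then at 55.3, 92.2 and 131 CPM (adjusted p = 0.145), and its first Ctrl library lay within the DdBIC range. IER2, from the list below, did not overlap between groups, with 19.98, 75.9 and 209 CPM against 539, 433 and 519 CPM, but its Ctrl libraries differed by 10.4-fold and it was not called (adjusted p = 0.17).

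**Figure D1:**
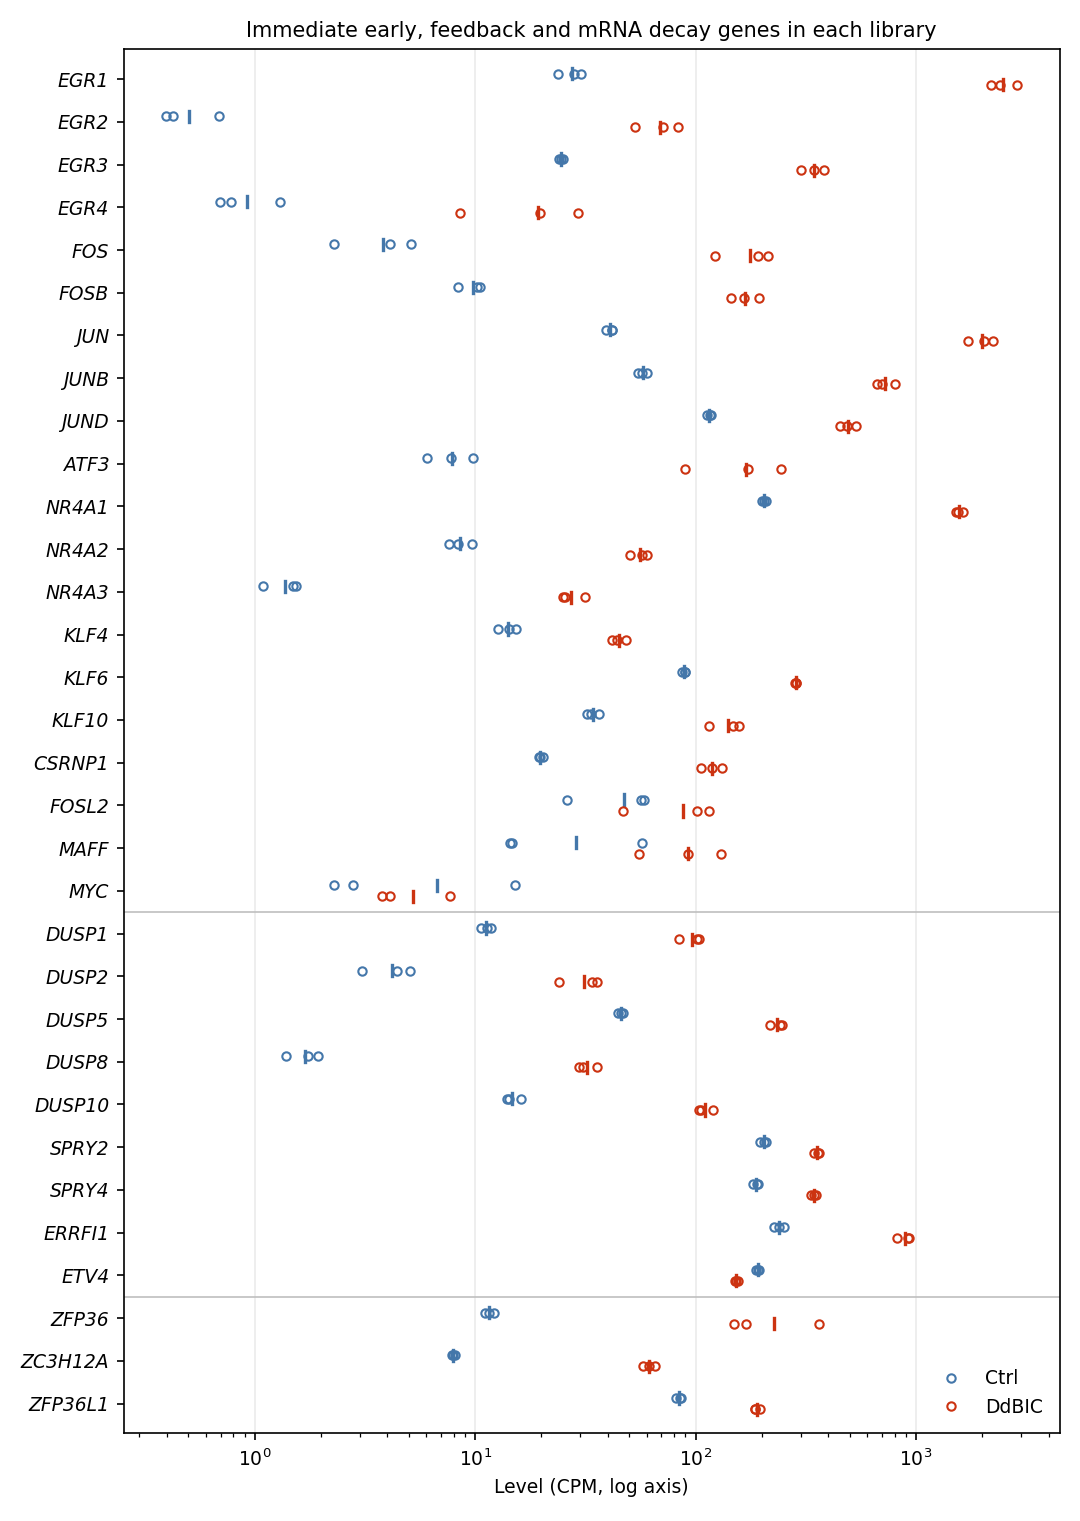
Level of immediate early transcription factors (top), genes that limit or follow MAP kinase signalling (middle) and mRNA decay genes (bottom) in CPM, log axis. Each library is 1 circle, with a bar at the mean of 3. Ctrl (blue) and DdBIC (red) are apart for every gene shown except FOSL2, MAFF and MYC, and ETV4 is the one called lower after DdBIC.

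Most tested immediate early genes that encode no transcription factor were also higher. Of 30 listed genes 29 were tested, and 26 were higher (89.7%, against 20.0% of all tested genes), 18 of them by at least 2-fold. The list held 1 lower member, and its median log2 fold change was 1.26. The lists described here share some members, such as DUSP1 and ZFP36. ARC, a cytoskeletal protein best known from synapses, went from 8.91, 8.66 and 9.93 CPM to 155, 85.2 and 134 CPM (3.77 ± 0.20, adjusted p = 4.59e-07). PTGS2, the inducible cyclooxygenase of prostaglandin synthesis, went from 2.26 to 2.62 CPM to 17.05 to 18.3 CPM (2.87 ± 0.17, adjusted p = 3.23e-07). Both were low in all Ctrl libraries and clearly present in all DdBIC libraries. IER3, a survival gene, rose by 2.50 ± 0.05 on the log2 scale and reached 1458 to 1551 CPM. The growth arrest genes GADD45B and GADD45A rose by 2.40 ± 0.10 and 2.37 ± 0.17, the small GTPase RHOB by 2.02 ± 0.07, the kinase PLK3 by 1.94 ± 0.06 and the anti-apoptotic MCL1 by 1.72 ± 0.08. CYR61 and CTGF, matricellular proteins that YAP and serum response factor induce, rose by 1.70 ± 0.04 and 0.84 ± 0.06. THBS1, the matrix protein thrombospondin, was the lower member, at 2773 to 2809 CPM and then at 2200.0 to 2256 CPM (-0.32 ± 0.04, adjusted p = 6.34e-05).

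Genes that limit or follow ERK and other MAP kinase signalling were mostly higher. The list also holds NAB1 and NAB2, the EGR corepressors named above. Of the 26 listed, all tested, 19 were higher (73.1%, against 20.0% of all tested genes), 10 by at least 2-fold, and 1 was lower. The dual-specificity phosphatases remove the activating phosphates from MAP kinases. DUSP8, which acts on JNK and p38, was at 1.94, 1.74 and 1.38 CPM in the Ctrl and at 35.7, 30.97 and 29.5 CPM in the DdBIC libraries (4.25 ± 0.17, adjusted p = 1.5e-08). DUSP1 went from 10.6, 11.8 and 11.3 CPM to 104, 84.4 and 102 CPM (3.10 ± 0.08, adjusted p = 5.11e-10). The groups were far apart for both. DUSP10 and DUSP16, which also act on JNK and p38, rose by 2.89 ± 0.10 and 1.51 ± 0.08 on the log2 scale, and the nuclear phosphatases DUSP2 and DUSP5 by 2.90 ± 0.19 and 2.36 ± 0.05. DUSP6, the cytoplasmic ERK phosphatase, went from 151, 152 and 218 CPM to 358, 499.5 and 508 CPM (1.39 ± 0.19, adjusted p = 0.000447). Other genes that follow ERK activity rose by less, DUSP4 by 0.45 ± 0.02, SPRY2 by 0.80 ± 0.04 and SPRY4 by 0.87 ± 0.04. ERRFI1, an inhibitor of the EGF receptor, rose by 1.89 ± 0.05. The ETS factor ETV4, an ERK-dependent gene, was lower, at 188 to 194 CPM and then 150.4 to 156 CPM (-0.32 ± 0.04, adjusted p = 7.3e-05), and its relative ETV5 was at 152 to 157 CPM and 150.3 to 153 CPM (adjusted p = 0.591).

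The cyclic AMP response element TGACGTCA, to which CREB and ATF factors bind, occurred in 1.65% of all RefSeq windows. It was in 3.24% of the 11358 tested genes that had at least 1 window. Of the 26 genes on the list above, 19 had a window and 3 of these held the element (15.8%). DUSP1 had it at -125, DUSP8 at -118 and -74, and EPHA2 at -51. The 150 bases before the DUSP8 start are shown because the element occurs there in 2 copies, which are in capitals.
DUSP8 (chr11:1572272-1572421, minus strand): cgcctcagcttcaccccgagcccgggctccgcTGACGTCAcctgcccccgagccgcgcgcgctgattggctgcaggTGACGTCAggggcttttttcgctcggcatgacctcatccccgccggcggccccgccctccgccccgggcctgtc
The windows of DUSP1 and DUSP8 held no match to the CArG box, the NF-kB motif or the AP-1 motif TGANTCA, which says only that those letters are not in them.

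Genes of mRNA decay, which shorten the life of immediate early and cytokine transcripts, were higher in 13 of 15 members, all tested. That is 86.7%, against 20.0% of all tested genes, and 5 rose by at least 2-fold. ZFP36, the tristetraprolin protein that binds AU-rich elements, was at 12.2, 11.1 and 11.6 CPM in the Ctrl and at 169, 361 and 149 CPM in the DdBIC libraries (4.29 ± 0.33, adjusted p = 1e-05). Its second DdBIC library was the highest by over 2-fold, and the groups did not overlap. ZC3H12A, the endonuclease regnase, rose from 7.88 to 8.09 CPM to 57.6 to 65.6 CPM (2.95 ± 0.07). BTG1 and ZFP36L1 rose by 1.25 ± 0.04 and 1.17 ± 0.08. ELAVL1, which stabilises such transcripts, was one of the 2 members not called, at 167 to 193 CPM and 165 to 174 CPM (adjusted p = 0.367).

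The NF-kB subunits and IkB proteins were higher in 10 of 11 members, all tested (90.9%, against 20.0% of all tested genes). Of these 7 rose by at least 2-fold, and the list's median log2 fold change was 1.36. NFKBIA, the IkB protein that NF-kB resynthesises to stop its own activity, was at 19.4, 21.3 and 16.8 CPM in the Ctrl and at 140.2, 190.0 and 133 CPM in the DdBIC libraries (3.01 ± 0.27, adjusted p = 2.54e-05). NFKBIZ, a nuclear IkB that acts as a coactivator, went from 24.2, 20.7 and 22.7 CPM to 115, 117 and 109 CPM (2.34 ± 0.10, adjusted p = 2.22e-08). Neither gene overlapped between the groups. Of the subunits, REL rose by 1.82 ± 0.28, RELB by 1.53 ± 0.05, NFKB2 by 1.36 ± 0.05 and NFKB1 by 0.64 ± 0.04 on the log2 scale, and the IkB genes NFKBIE and BCL3 rose by 1.36 ± 0.12 and 1.15 ± 0.06. RELA, the subunit that most cells make constantly, was the member not called, at 91.5, 92.2 and 82.4 CPM against 98.1, 108 and 96.05 CPM (0.18 ± 0.07, adjusted p = 0.053). It lies at the threshold, since DESeq2 gave an adjusted p of 0.0478 and a filter of at least 10 counts in every library gave 0.0487.

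Of the upstream kinases, adaptors and ubiquitin editors, a few rose strongly. Of 36 listed 35 were tested, and 16 were higher (45.7%, against 20.0% of all tested genes), 5 of them by at least 2-fold. The list held 4 lower members (11.4%, against 17.2% of all tested genes), and its median was 0.20. TNFAIP3, the A20 ubiquitin editor that ends NF-kB signalling, was at 3.90, 3.78 and 4.07 CPM in the Ctrl and at 223, 185 and 205 CPM in the DdBIC libraries (5.71 ± 0.13, adjusted p = 2.15e-10). BIRC3, a ubiquitin ligase also known as cIAP2, was at 0.645, 1.08 and 1.15 CPM and then at 39.3, 31.8 and 38.2 CPM (5.24 ± 0.21, adjusted p = 1.36e-08). Both had a low level in every Ctrl library and a wide gap to every DdBIC library. IRAK2 rose by 2.67 ± 0.11, TRAF1 by 2.48 ± 0.16, MAP3K8 by 1.10 ± 0.24 and the deubiquitinase CYLD by 0.91 ± 0.13 on the log2 scale. The lower members were TAB1 (-0.33 ± 0.04), CARD10 (-0.26 ± 0.04), RBCK1 (-0.20 ± 0.04) and MALT1 (-0.17 ± 0.04). IKBKG, the regulatory subunit of the IkB kinase, was at 23.5 to 24.8 CPM and 20.4 to 24.3 CPM (adjusted p = 0.453).

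The NF-kB motif was found in 5.21% of all RefSeq windows and in 8.14% of the 11358 tested genes that had at least 1 window. Of the NF-kB subunits and IkB proteins, 9 of 11 had a window and 7 of these held a match (77.8%), although genes differ in their number of windows. The share was much lower for the other products that NF-kB is known to induce, described below, with 5 of 22 (22.7%). Of the genes higher by at least 2-fold that had a window, 41 of 333 held a match (12.3%). The 150 bases before 2 starts are shown because their genes encode inhibitors of the pathway that rose strongly, with the NF-kB motif in capitals.
TNFAIP3 (chr6:137867109-137867258, plus strand): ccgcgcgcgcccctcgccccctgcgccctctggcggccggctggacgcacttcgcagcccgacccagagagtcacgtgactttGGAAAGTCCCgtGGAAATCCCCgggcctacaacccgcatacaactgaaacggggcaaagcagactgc
NFKBIA (chr14:35404750-35404899, minus strand): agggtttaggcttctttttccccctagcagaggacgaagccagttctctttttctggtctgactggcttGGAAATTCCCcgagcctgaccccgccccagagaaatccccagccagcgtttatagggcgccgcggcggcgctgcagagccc
TNFAIP3 has matches at -67 and -55, and NFKBIA has one at -81. BIRC3 has matches at -199 and -135. None of these shared bases with a match to another of the motifs searched.

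Products that NF-kB is known to induce, other than secreted cytokines, were higher in 18 of 26 tested members of a list of 32. That is 69.2%, against 20.0% of all tested genes, and 10 rose by at least 2-fold. Members near 0 in Ctrl, such as TNFRSF9, did not pass the filter through the Ctrl libraries, so these counts are a description only. With at least 10 counts required in every library, 17 were higher. The 6 untested members were VCAM1, SELE, BCL2A1, LCN2, NOD2 and TLR2, and SELE, an endothelial adhesion gene, had 0, 0 and 0 counts in the Ctrl and 16, 8 and 19 counts in the DdBIC libraries. ICAM1, the adhesion molecule that binds leukocyte integrins, went from 55.9, 58.8 and 58.2 CPM to 236, 192 and 214 CPM (1.89 ± 0.07, adjusted p = 7.18e-09). PTX3, a soluble pattern recognition protein, rose from 8.83 to 9.58 CPM to 57.5 to 69.5 CPM (2.82 ± 0.09). CD274, which encodes the checkpoint ligand PD-L1, rose from 1.96 to 2.29 CPM to 6.15 to 7.23 CPM (1.63 ± 0.11, adjusted p = 6.25e-07). The 3 genes were higher in every DdBIC library than in any Ctrl library. TNFRSF9, the receptor 4-1BB, had 11, 0 and 0 counts in the Ctrl and 174, 197 and 209 counts in the DdBIC libraries. CD83 rose by 1.53 ± 0.09, TNFAIP2 by 1.38 ± 0.06, SDC4 by 1.17 ± 0.05 and the mitochondrial superoxide dismutase SOD2 by 0.66 ± 0.09 on the log2 scale.

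Chemokines of the CXC and CC families included some of the largest rises. CXCL1, CXCL2, CXCL3 and CXCL8 encode ligands of CXCR2, the receptor that draws in neutrophils. CXCL8 was at 9.03, 8.66 and 9.75 CPM in the Ctrl and at 713, 598 and 703 CPM in the DdBIC libraries (6.20 ± 0.22, adjusted p = 4.46e-08). CXCL2 was at 0.620, 0.453 and 0.461 CPM and then at 95.5, 77.3 and 82.6 CPM (7.37 ± 0.30, adjusted p = 5.68e-08). The groups were far apart for both, from different starting levels. CXCL1 started higher, at 28.4, 33.7 and 30.04 CPM, and reached 479, 427 and 426 CPM (3.85 ± 0.09, adjusted p = 2.52e-10). CXCL3 rose from 0.397 to 0.563 CPM to 21.5 to 22.7 CPM (5.59 ± 0.28). CCL2, which draws in monocytes, rose from 13.7 to 14.6 CPM to 45.1 to 46.9 CPM (1.68 ± 0.07). CCL20 had 0, 3 and 10 counts in the Ctrl and 133, 129 and 170 counts in the DdBIC libraries. CCL28, a mucosal chemokine, was lower, at 5.93 to 6.65 CPM and then at 3.76 to 5.37 CPM (-0.51 ± 0.13, adjusted p = 0.00821). Of the 22 chemokines listed 9 passed the filter, and 11 had no count in any Ctrl library. CXCL9, CXCL10 and CXCL11, which interferon induces, had 0 to 2 counts in each library, and CCL3, CCL4 and CCL5 had 0 to 4. Of the 9 tested, 6 were higher (66.7%, against 20.0% of all tested genes) and 1 lower (11.1%, against 17.2%). A gene that is off in Ctrl passes the filter only through the group where it is on. The count over tested chemokines is therefore a description only. Their median log2 fold change was 3.85 over the genes that passed the filter, and with no filter on low counts it was 2.17 in edgeR and 1.78 in DESeq2.

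CXCL1, CXCL2 and CXCL3 lie close together on chromosome 4. Their promoters are shown because the same 11 letters, which hold the NF-kB motif on both strands, stand at nearly the same distance from each start.
CXCL1 (chr4:73869243-73869392, plus strand): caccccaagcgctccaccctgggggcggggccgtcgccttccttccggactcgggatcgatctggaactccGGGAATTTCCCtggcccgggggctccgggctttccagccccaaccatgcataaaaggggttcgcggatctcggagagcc
CXCL2 (chr4:74099196-74099345, minus strand): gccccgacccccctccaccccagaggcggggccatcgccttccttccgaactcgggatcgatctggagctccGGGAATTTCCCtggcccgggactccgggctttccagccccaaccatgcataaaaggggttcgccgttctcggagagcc
CXCL3 (chr4:74038690-74038839, minus strand): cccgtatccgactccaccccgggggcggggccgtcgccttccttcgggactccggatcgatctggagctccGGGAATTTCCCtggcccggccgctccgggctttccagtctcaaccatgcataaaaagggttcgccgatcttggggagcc
The run in capitals begins at -79 in CXCL1 and CXCL3 and at -78 in CXCL2. NF-kB matches were also found at -79 of CCL20 and at -73 of IL6. In CXCL8 the NF-kB motif as searched had no match, and TGANTCA, found in 6.57% of all RefSeq windows, was at -137. Shares over these lists are not given, since 6 of 9 tested chemokines and 15 of 21 tested interleukins and related ligands had a window.

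Interleukins, colony stimulating factors and TNF family ligands were higher in 14 of 21 tested genes, of 34 listed. That is 66.7%, against 20.0% of all tested genes, and the list's median log2 fold change was 1.56. With at least 10 counts required in every library, 9 were higher and the median was 0.91. Members near 0 in Ctrl passed the filter only through the DdBIC libraries, so these counts are a description only. Several began near 0, so their counts are given. TNF, the cytokine that starts much of NF-kB signalling in tissues, had 2, 0 and 2 counts in the Ctrl libraries. In the DdBIC libraries it had 303, 260 and 301 counts, a ratio of 211 with a 95% counting interval of 82.2 to 777. CSF2, the growth factor of granulocytes and macrophages, had 8, 4 and 4 counts against 195, 199 and 245. Its ratio was 39 with a 95% counting interval of 23.9 to 68.7. IL6, an inducer of the acute phase response, had 11, 11 and 11 counts against 286, 277 and 251, a ratio of 24.1 with a 95% counting interval of 17 to 35.3 (adjusted p = 2.55e-07). TNF, CSF2 and IL6 were thus barely detected without DdBIC and were present in every library with it. IL32 had 6, 4 and 2 counts against 92, 89 and 78, and LTB had 4, 0 and 0 against 32, 19 and 25. The intervals are exact and cover counting error only.

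IL11, LIF and CLCF1, cytokines that signal through gp130, were present in the Ctrl libraries and rose. IL11 went from 29.9, 27.5 and 27.2 CPM to 207, 178 and 189 CPM (2.76 ± 0.06, adjusted p = 2.02e-10). LIF went from 45.1, 48.97 and 52.2 CPM to 238, 211 and 218 CPM (2.19 ± 0.06, adjusted p = 7.15e-10), and CLCF1 rose by 1.84 ± 0.08 on the log2 scale. The groups did not overlap for IL11 or LIF. IL6ST, the gene of gp130 itself, rose by 0.60 ± 0.05. IL24, a cytokine of the IL-10 family first found in melanoma cells, rose by 2.43 ± 0.17. IL1A and IL1B rose by 1.64 ± 0.26 and 1.53 ± 0.22, to 1.91 to 3.08 and 2.29 to 2.98 CPM, and CSF1 by 0.76 ± 0.07. IL7 and IL15 were at 1.84 to 2.43 and 0.806 to 1.41 CPM in the Ctrl and at 1.61 to 2.06 and 0.541 to 1.09 CPM in the DdBIC libraries and were not called (adjusted p = 0.629 and 0.352).

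**Figure D2:**
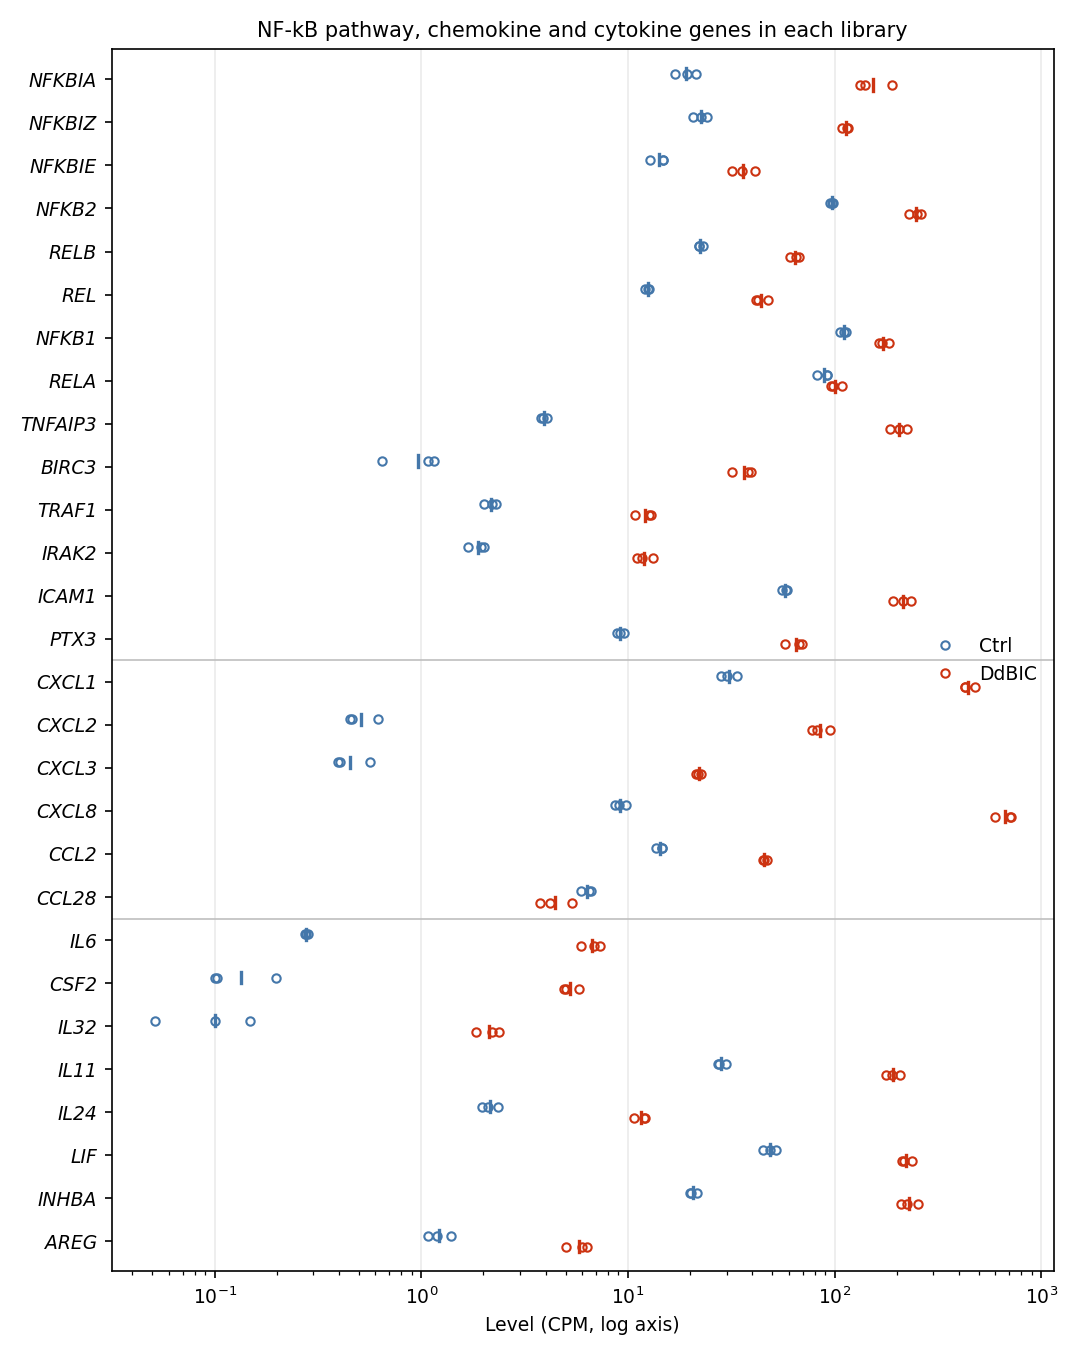
Level of NF-kB pathway and target genes (top), chemokines (middle) and cytokines and growth factors (bottom) in CPM on a log axis, with 1 circle per library and a bar at the mean of 3. Ctrl (blue) and DdBIC (red) do not overlap for any gene shown, RELA has the smallest gap, and CCL28 is the one that was lower. TNF, LTB, CCL20 and TNFRSF9 are left out because a log axis cannot show their Ctrl libraries at 0.

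Receptors of these cytokines and their inhibitors were measured too. Of 39 cytokine receptor and SOCS genes 34 were tested, 12 were higher (35.3%, against 20.0% of all tested genes), 2 of them by at least 2-fold, and 3 were lower (8.82%, against 17.2%), with a median of 0.03. With upper-quartile scaling 6 were lower and the median became -0.03. The SOCS proteins shut off JAK signalling. SOCS1 went from 0.844, 0.756 and 0.998 CPM to 4.09, 3.03 and 2.74 CPM (1.92 ± 0.20, adjusted p = 2.48e-05) and SOCS3 from 17.9 to 20.5 CPM to 36.8 to 44.2 CPM (1.11 ± 0.08). TNFRSF21, the death receptor DR6, was lower, at 187, 190.5 and 185 CPM and then at 108, 107 and 109 CPM (-0.79 ± 0.03, adjusted p = 3.26e-09). Neither SOCS1 nor TNFRSF21 overlapped between the groups.

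Growth factor ligands were higher in 18 of 30 tested genes of 38 listed (60%, against 20.0% of all tested genes), 12 of them by at least 2-fold. With at least 10 counts required in every library, 17 were higher. INHBA, a subunit of activin, went from 20.03, 21.6 and 20.2 CPM to 255, 210.5 and 225 CPM (3.48 ± 0.07, adjusted p = 1.65e-10). The EGF receptor ligands AREG and HBEGF rose by 2.25 ± 0.13 and 1.40 ± 0.09 on the log2 scale. EDN1, a vasoconstrictor and melanocyte mitogen, rose by 2.06 ± 0.27, ANGPTL4 by 2.07 ± 0.10, STC1 by 1.76 ± 0.12, PDGFA by 1.21 ± 0.08 and VEGFA by 1.19 ± 0.18. GDF15, a stress cytokine that the integrated stress response also induces, rose by 1.38 ± 0.12. Of the cytoskeletal targets of serum response factor and YAP, 8 of 23 tested (24 listed) were higher (34.8%, against 20.0% of all tested genes). Of these 2 rose by at least 2-fold, NUAK2 and CYR61 (1.70 ± 0.04). The list held 4 lower members (17.4%, against 17.2%). ACTG1 was at 0.27 ± 0.06, FHL2 at 0.67 ± 0.05 and FLNA at -0.18 ± 0.03. NUAK2, an AMPK-related kinase, was among the 30 largest rises, at 7.94, 7.98 and 6.83 CPM and then at 136, 119.7 and 127 CPM (4.07 ± 0.09, adjusted p = 1.66e-10).

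Genes called with a change of at least 2-fold in either direction were often low in Ctrl, which enters the fold itself, and were shorter than all tested genes. For the 441 higher genes, the median Ctrl level was 3.83 CPM against 23.6 CPM for all tested genes, and 37.4% were under 1 CPM in Ctrl against 12.4% of all tested genes. Their median span in the genome was 13.7 kb against 30.7 kb. For the 61 lower genes the median level was 1.89 CPM, 32.8% were under 1 CPM and the median span was 18.8 kb. The DdBIC libraries were not equal in strength. Replicate 1 was the highest of the 3 in 270 of the 441 genes and replicate 2 the lowest in 258, with median log2 distances from the DdBIC mean of 0.08 and -0.09. Of the 51 immediate early genes called higher, replicate 1 was the highest in 41.

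Higher genes outnumbered lower ones in some other lists. Zinc finger genes of the ZNF series on chromosome 19, most of which encode KRAB repressors, were higher in 111 of 237 tested (249 in the table). That is 46.8%, against 20.0% of all tested genes. They were lower in 2 (0.844%, against 17.2%), and their median log2 fold change was 0.44. ZNF121 went from 43.9, 37.5 and 43.1 CPM to 109.5, 97.4 and 114 CPM (1.36 ± 0.08, adjusted p = 2.47e-07), and ZNF460 rose by 2.07 ± 0.21. Replication-dependent histone genes, whose transcripts normally end in a stem-loop and lack a poly(A) tail, were higher in 33 of 47 tested (68 in the table). That is 70.2%, against 20.0% of all tested genes, and the median of the histone genes was 1.44. With at least 10 counts required in every library, 20 were higher. Members near 0 in Ctrl passed the filter through the DdBIC libraries, so these histone counts are a description only. Their levels were low, as for HIST1H1C at 4.78 to 6.30 CPM and then 9.69 to 12.5 CPM (1.05 ± 0.12) and HIST1H2BK at 10.6 to 10.98 CPM and then 15.99 to 19.6 CPM (0.72 ± 0.09). Many histone and ZNF genes have near-identical copies, so the split of reads between them is uncertain. Circadian clock genes were higher in 11 of 17 tested (18 listed; 64.7%, against 20.0%) and lower in 1 (5.88%, against 17.2%). Among them NFIL3 was at 1.90 ± 0.09, NR1D1 at 1.41 ± 0.07 and PER1 at 1.02 ± 0.07. Of the p53 targets, 13 of 28 tested (29 listed) were higher (46.4%, against 20.0% of all tested genes) and 6 lower (21.4%, against 17.2%). PMAIP1, the BH3 protein NOXA, rose by 1.42 ± 0.06, SESN2 by 2.25 ± 0.06 and CDKN1A, the cell cycle inhibitor p21, by 0.59 ± 0.07, and PMAIP1 and SESN2 are also induced by ATF4. Ribosome biogenesis genes were higher in 15 of 35 (42.9%, against 20.0%) and lower in 7 (20%, against 17.2%; 11 with upper-quartile scaling), with RRN3, a factor of RNA polymerase I, at 0.52 ± 0.04 and UBTF, its upstream binding factor, at -0.40 ± 0.04.

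The lowered genes mostly changed by small amounts. Of the 2451 genes called lower, 2106 fell by less than 0.5 on the log2 scale. Among genes that averaged 5 CPM or more and whose groups did not overlap, the 30 largest falls ranged from -5.40 to -0.84, and the 30 largest rises from 2.90 to 7.37. Among these falls, APOLD1, whose span overlaps that of DDX47 in GENCODE but not in RefSeq, was at 85.6, 2.17 and 76.7 CPM in the Ctrl and at 1.52, 1.11 and 1.25 CPM in the DdBIC libraries (-5.40 ± 1.85, adjusted p = 0.0466). PCDHGA6, a protocadherin gene that overlaps others of its cluster, was at 1.74, 1.69 and 33.03 CPM and then at 1.18, 1.21 and 1.39 CPM (-3.26 ± 1.08, adjusted p = 0.041). In both, 1 or 2 Ctrl libraries set the size of the change, and PCDHGA6 without the third Ctrl library gave -0.44 (adjusted p = 0.132). The call of APOLD1 was lost without Ctrl replicate 1 or 3 (adjusted p = 0.0957 and 0.0908) or DdBIC replicate 1, 2 or 3 (0.118, 0.122 and 0.122), and that of PCDHGA6 without DdBIC replicate 1, 2 or 3 (0.11, 0.106 and 0.1). PAQR4, at 83.7, 32.7 and 37.4 CPM and then 27.2, 24.2 and 23.5 CPM, lost its call without DdBIC replicate 1, 2 or 3 (adjusted p = 0.0559, 0.0717 and 0.0757). The log2 fold changes without a DdBIC library stayed close in size, at -1.10, -1.02 and -1.0003 for PAQR4 against -1.04 with all libraries. Its size rested on the first Ctrl library, without which it was -0.49 (adjusted p = 0.00802). Those of APOLD1 in the fits that lost its call ranged from -5.53 to -4.93, and without a DdBIC library those of PCDHGA6 from -3.35 to -3.22.

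Among the falls with a narrow spread were developmental signalling genes. GAS1, a Hedgehog coreceptor, was at 19.4, 19.8 and 19.98 CPM in the Ctrl and at 9.58, 7.97 and 8.63 CPM in the DdBIC libraries (-1.18 ± 0.07, adjusted p = 2.67e-07). PTCH1, the Hedgehog receptor and target, went from 78.3, 83.7 and 62.4 CPM to 34.8, 38.5 and 35.7 CPM (-1.04 ± 0.13, adjusted p = 0.000102). Neither gene overlapped between the groups. SMO and GLI3, the transducer and a transcription factor of the pathway, were lower (-0.37 ± 0.05 and -0.28 ± 0.06). NOTCH2 went from 245 to 247 CPM to 154 to 155 CPM (-0.66 ± 0.02, adjusted p = 2.76e-09) and NOTCH1 was lower too (-0.39 ± 0.03). The Wnt receptor FZD4, the Wnt factor LEF1 and the ligand WNT5A changed by -0.83 ± 0.09, -0.63 ± 0.07 and -0.61 ± 0.04. Over the whole Notch, Wnt and Hedgehog list 11 of 32 tested (36 listed) were lower (34.4%, against 17.2% of all tested genes) and 8 higher (25%, against 20.0%), among the latter HES1 (0.92 ± 0.06) and HEY2 (1.30 ± 0.25), with a median of -0.03. The BMP readouts SMAD6 (-0.88 ± 0.12), ID3 (-0.56 ± 0.12) and ATOH8 (-1.58 ± 0.13) were lower, and ID1 was at 26.6 to 28.97 and 27.2 to 31.95 CPM (adjusted p = 0.21). On that list, which also holds TGF-beta readouts, 5 of 22 tested (24 listed) were lower (22.7%, against 17.2% of all tested genes) and 7 higher (31.8%, against 20.0%), the latter 4 without Ctrl replicate 1 and 4 without DdBIC replicate 1, and its median of 0.04 became -0.02 with upper-quartile scaling.

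Other genes among the largest falls are named singly. ADORA1, an adenosine receptor, went from 20.8, 20.7 and 21.7 CPM to 11.1, 8.32 and 10.3 CPM (-1.09 ± 0.10, adjusted p = 9.92e-06). F2R and F2RL2, thrombin receptors that neighbour each other on chromosome 5, were lower (-0.88 ± 0.05 and -0.97 ± 0.08), F2R from 102 to 110.4 CPM to 55.5 to 59.4 CPM. Neither ADORA1 nor F2R overlapped between the groups. The adhesion receptor ADGRF1 changed by -1.21 ± 0.15, and the neuronal membrane protein SLITRK6 by -1.01 ± 0.07. The homeobox gene DLX1 went from 43.1, 43.6 and 46.3 CPM to 20.8, 22.04 and 21.9 CPM (-1.04 ± 0.06, adjusted p = 1.74e-07), and the stem cell factor SOX2 was lower (-0.86 ± 0.09). Of the melanocyte lineage genes 6 of 20 tested (28 listed) were higher (30%, against 20.0% of all tested genes) and 7 lower (35%, against 17.2%). SOX10 rose from 617 to 644 CPM to 711 to 769 CPM (0.23 ± 0.05) and SOX9 by 1.08 ± 0.13, the endothelin receptor EDNRB was lower (-0.58 ± 0.15), and MITF, the central factor of the lineage, was at 14.6 to 16.96 and 14.9 to 21.5 CPM (adjusted p = 0.476).

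Extracellular matrix and adhesion genes were lower in 19 of 37 tested (38 listed; 51.4%, against 17.2% of all tested genes). They were higher in 3 (8.11%, against 20.0%), and the median was -0.18. COL4A1, a type IV collagen chain of basement membranes, was at 177, 185 and 185 CPM in the Ctrl and at 112, 112 and 109.9 CPM in the DdBIC libraries (-0.71 ± 0.03, adjusted p = 3.2e-08), and COL4A2, which shares its promoter region, was lower (-0.62 ± 0.03). LAMC1, a laminin chain, went from 781 to 792 CPM to 549 to 565 CPM (-0.50 ± 0.02, adjusted p = 1.43e-08). Neither COL4A1 nor LAMC1 overlapped between the groups. COL6A3 changed by -0.54 ± 0.11, COL5A1 by -0.51 ± 0.07, the integrin ITGB3 by -0.26 ± 0.06 and fibronectin, FN1, by -0.22 ± 0.04.

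Mitosis and spindle genes were lower in 24 of 40, all tested (60%, against 17.2% of all tested genes). The list held 1 higher gene (2.5%, against 20.0%), and its median was -0.22. With upper-quartile scaling 31 were lower. KIF20A, a kinesin of cytokinesis, was at 218, 220.5 and 217 CPM in the Ctrl and at 148, 159 and 155 CPM in the DdBIC libraries (-0.50 ± 0.04, adjusted p = 1.82e-06). On the log2 scale, the topoisomerase TOP2A fell by 0.40 ± 0.04, HMMR by 0.40 ± 0.09, the kinase PLK1 by 0.38 ± 0.04, the proliferation marker MKI67 by 0.36 ± 0.05 and cyclin B1, CCNB1, by 0.28 ± 0.05. UBE2C, a ubiquitin-conjugating enzyme of mitotic exit, was the one higher, from 217 to 231 CPM to 239.7 to 274 CPM (0.20 ± 0.05, adjusted p = 0.00825). Of the genes of DNA replication, 16 of 43 were lower (37.2%, against 17.2% of all tested genes) and 9 higher (20.9%, against 20.0%), 23 and 5 with upper-quartile scaling, with a median of -0.07. RPA1 and PRIM1 changed by -0.32 ± 0.02 and -0.33 ± 0.04, and CDC6, which helps load the replicative helicase, rose by 0.44 ± 0.03. Recombination and Fanconi genes were higher in 8 of 32 (25%, near the 20.0% of all tested genes) and lower in 3 (9.38%, against 17.2%). Their median was -0.02, and with upper-quartile scaling 6 were higher and 6 lower.

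Nuclear genes for the respiratory chain were lower in 21 of 41 genes, all tested (51.2%, against 17.2% of all tested genes). They were higher in 0 (against 20.0%), and the median was -0.15. The ATP synthase genes ATP5G1, ATP5A1 and ATP5B changed by -0.38 ± 0.07, -0.33 ± 0.07 and -0.26 ± 0.04. Of succinate dehydrogenase, SDHC went from 91.7 to 99.1 CPM to 77.2 to 83.1 CPM (-0.27 ± 0.04), SDHD from 31.4 to 33.1 CPM to 25.8 to 28.3 CPM (-0.26 ± 0.07), SDHB changed by -0.19 ± 0.03 and SDHA by -0.13 ± 0.03. SDHD shares its symbol with another row of the table, and the row used is the one to which the gene name table gives that symbol. Among the 13 protein genes of the mitochondrial genome 6 were lower (46.2%, against 17.2% of all tested genes) and 0 higher (against 20.0%). MT-ND6, which lies on the light strand, was at 256, 263 and 307 CPM in the Ctrl and at 125, 160.5 and 125 CPM in the DdBIC libraries (-1.01 ± 0.11, adjusted p = 6.63e-05), and MT-ND5 changed by -0.62 ± 0.10. Whether reads were counted by strand is not given in the sources used here, so reads from the opposite strand cannot be told apart in MT-ND6. Mitochondrial genes took 2.90 to 3.10% of counts in the Ctrl libraries and 2.50, 2.99 and 2.42% in DdBIC replicates 1, 2 and 3. Without DdBIC replicate 2 the number of lower mitochondrial genes was 11, and it was 3 without Ctrl replicate 2 or 3 or DdBIC replicate 1 or 3. Of the cytosolic ribosomal proteins 9 of 40 were lower (22.5%, near the 17.2% of all tested genes). On this list 0 were higher (against 20.0% of all tested genes), and the median was -0.06. With upper-quartile scaling 21 were lower, and 5 were lower without Ctrl replicate 1 or without Ctrl replicate 3. Of the mitochondrial ribosomal proteins 6 of 40 were lower (15%, again near 17.2%) and 2 higher (5%, against 20.0%), with a median of -0.06. With upper-quartile scaling 16 were lower, and 1, 2 and 2 were lower without Ctrl replicate 1, Ctrl replicate 3 and DdBIC replicate 1.

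**Figure D3:**
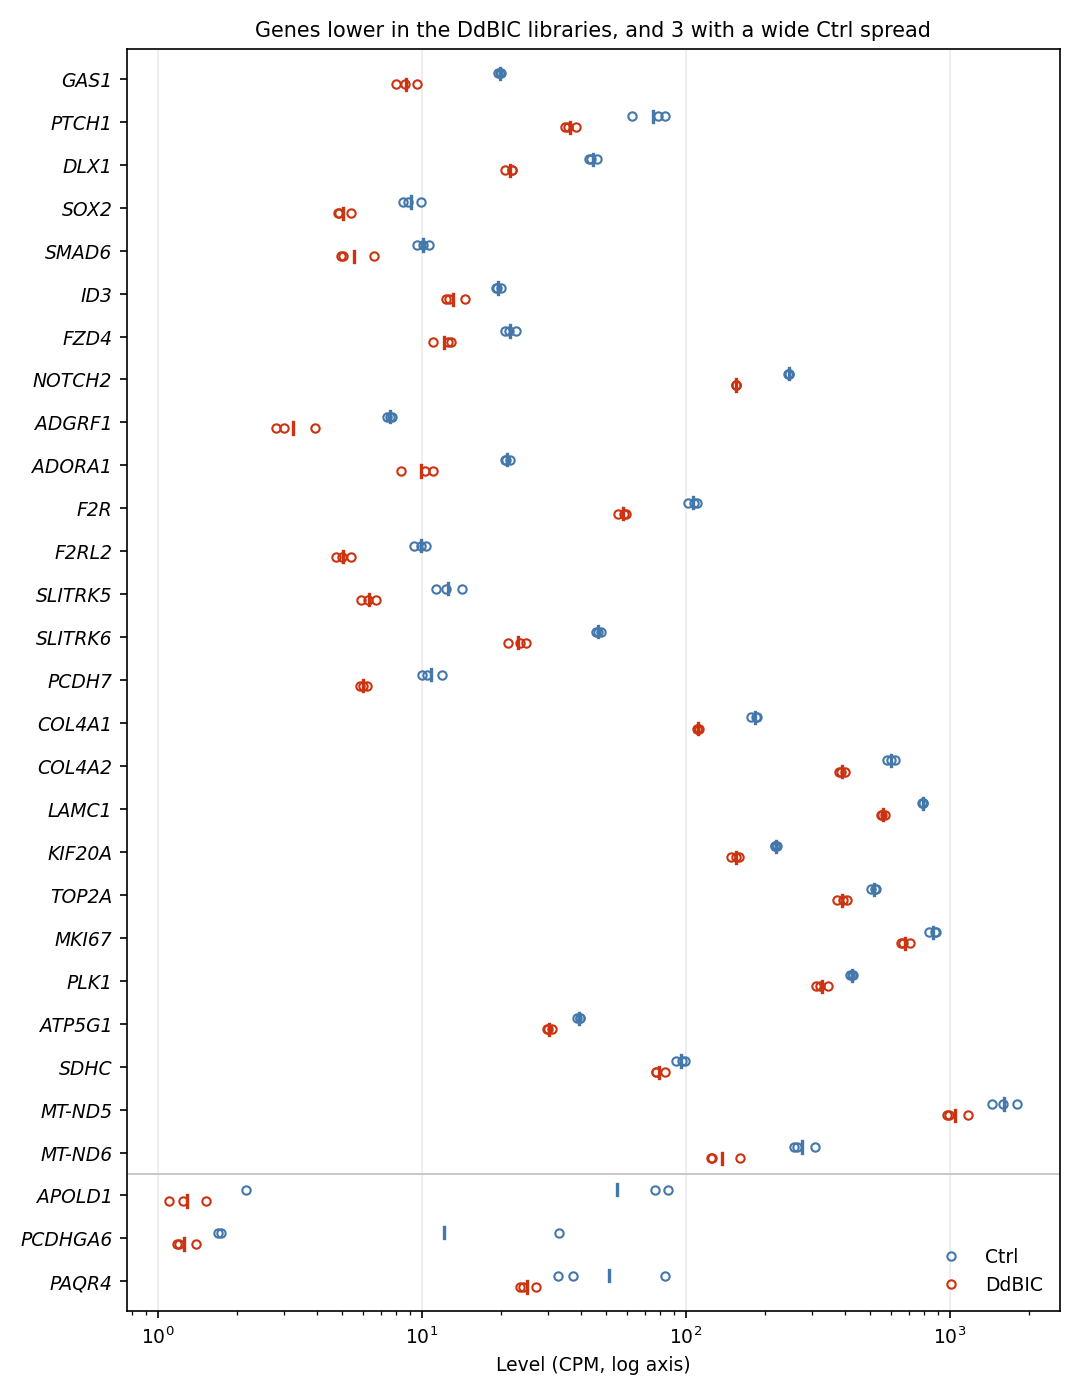
Level of genes lower after DdBIC in CPM on a log axis, with 1 circle per library and a bar at the mean of 3, and below the line 3 genes whose Ctrl libraries (blue) differ widely among themselves. For the genes above the line all DdBIC libraries (red) lie to the left of all Ctrl libraries.

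Of 31 interferon-induced genes tested (36 listed) 5 were higher (16.1%, against 20.0% of all tested genes) and 9 were lower (29%, against 17.2%), with a median of -0.11. Without Ctrl replicate 1, Ctrl replicate 2, DdBIC replicate 1 and DdBIC replicate 2 in turn 5 were lower each time, and 4 were lower without DdBIC replicate 3. IFIT1, an antiviral protein that type I interferon strongly induces, was at 2.28 to 2.51 CPM in the Ctrl and at 1.13 to 1.57 CPM in the DdBIC libraries (-0.76 ± 0.14, adjusted p = 0.00152), and IFNB1, the gene of interferon beta, had no count in any of the 6 libraries. Cholesterol synthesis genes were lower in 10 of 23 tested (24 listed; 43.5%, against 17.2% of all tested genes) and higher in 4 (17.4%, against 20.0%), with FDFT1 at -0.39 ± 0.05.

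Genes tied to the study's account of cell death were examined in the same test. Of the pyroptosis and inflammasome list, 15 of 24 genes passed the filter and 4 were higher (26.7%, near the 20.0% of all tested genes), among them IL1B (1.53 ± 0.22) and NLRP3 (1.05 ± 0.26), the last at 0.886 to 1.21 CPM in the DdBIC libraries. GSDMC, which encodes a pore-forming gasdermin, had 2, 0 and 0 counts in the Ctrl and 0, 0 and 0 counts in the DdBIC libraries. GZMB, granzyme B, had 4, 4 and 4 counts in the Ctrl and 3, 3 and 7 in the DdBIC libraries. GSDMC and GZMB did not pass the filter and were not tested. The study reports a rise of GZMB mRNA and protein in A375 cells after DdBIC, and cleavage of GSDMC protein. The duration behind these libraries is not given, so their counts cannot be set directly against those measurements. The DdBIC to Ctrl ratio of GZMB counts, scaled by library size, was 1.06 with a 95% counting interval of 0.446 to 2.54, and the upper bound of this ratio for GSDMC was 5.21. OPA1, a fusion protein of the inner mitochondrial membrane, was at 77.8 to 81.4 and 74.5 to 80.9 CPM (adjusted p = 0.37) and its protease OMA1 at 13.2 to 13.6 and 10.99 to 12.7 CPM (adjusted p = 0.134). EIF2AK3, the kinase PERK of the integrated stress response, went from 18.1 to 19.6 CPM to 40.2 to 42.3 CPM (1.13 ± 0.06, adjusted p = 1.21e-07).

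The leading genes were also measured in the other 2 groups, whose levels are given as a description. EGR1 was at 23.9 to 27.5 CPM with hemin alone and at 50.3 to 59.3 CPM with both compounds. CXCL8 was at 5.44 to 6.80 and 20.3 to 35.7 CPM, and TNFAIP3 at 3.76 to 4.55 and 7.68 to 10.4 CPM. NR4A1 was at 183 to 213 and 387 to 399 CPM. For EGR1, CXCL8, TNFAIP3 and NR4A1 the libraries with both compounds lay above the Ctrl libraries and far below the libraries with DdBIC alone. ZFP36 was at 9.20 to 10.2 CPM with hemin and at 7.58 to 9.99 CPM with both, below all its Ctrl libraries. Some other genes, chosen after their values were seen, stayed near or beyond their DdBIC level with both compounds. GDF15 was at 27.3 to 36.6 CPM with both against 26.8 to 30.8 CPM with DdBIC alone. The lowered GAS1 was at 8.94 to 9.47 against 7.97 to 9.58 CPM and SOX2 at 4.15 to 4.72 against 4.80 to 5.41 CPM. SMAD6 was at 3.53 to 4.33 against 4.94 to 6.62 CPM. With hemin alone GDF15 was at 16.0 to 20.4, GAS1 at 13.9 to 14.8, SOX2 at 6.77 to 6.95 and SMAD6 at 7.41 to 7.95 CPM. For each of these genes the libraries with hemin alone lay between the Ctrl and the DdBIC libraries.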

How the data were processed

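RNA-seq of A375 cells was deposited as a table of counts, TPM and FPKM per gene with 1 column per library. The submitters' processing notes list Trim Galore, Subread, featureCounts and hg38. Versions, annotation and strand setting are not given in the sources used here. The authors deposited whole-number counts without normalization and TPM scaled to a common sum. Only counts were tested, TPM served to check them, and FPKM was not used. The 12 libraries were fitted together in edgeR 4.0.16 (R 4.3.3), with TMM factors, filterByExpr, robust quasi-likelihood dispersions and 1 mean per group, and DdBIC was contrasted with Ctrl at a Benjamini-Hochberg adjusted p under 0.05. CPM values use the TMM factors. Named genes were list members, the 30 largest rises and falls of at least 5 mean CPM without overlap between the groups, and the genes the study is about. The members and lists were chosen with earlier results of these data known. On simulated counts for this comparison (14059 genes, 200 changed), 83% of changed genes and 89.3% of those changed at least 2-fold were recovered, and 5.14% of the genes called were unchanged ones. The deposited totals of 38781606 to 42317541 counts set the counting precision. Alternatives were DESeq2 1.42.0, other scalings and filters, the 6 libraries alone, a replicate block and leaving out each library. Some members of the lists are counted but not reported here by name.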

Additional observations from a re-analysis of the deposited data

How the results depend on the processing

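The total of 5310 changed genes lay between 4519 and 4812 when each of the 6 libraries was left out in turn, was 5438 with DESeq2, 5782 with upper-quartile scaling and 4944 with the 6 Ctrl and DdBIC libraries alone. Replicate numbers were shared between the groups. The deviations of same-numbered libraries correlated at 0.0072, 0.058 and 0.029. The highest correlations with a library of another number were 0.024, -0.0061 and 0.024. Whether same-numbered libraries belong together was not tested. With a replicate block 5084 genes were called, 2769 higher and 2315 lower, of which 422 and 55 changed by at least 2-fold. In that fit APOLD1 and PCDHGA6 were not called (adjusted p = 0.081 and 0.115). With upper-quartile scaling 16 mitochondrial ribosome genes and 21 cytosolic ribosomal protein genes were lower. With at least 10 counts in every library, which removes genes near 0 in Ctrl, 9 interleukins and related ligands and 20 histone genes were higher. In the 6 libraries alone 3 mitochondrial ribosome genes and 3 mitochondrially encoded genes were lower. Leaving out each library in turn gave 1 to 5 lower mitochondrial ribosome genes, 5 to 9 lower cytosolic ribosomal protein genes, 3 to 11 lower mitochondrially encoded genes, 4 to 7 higher BMP and TGF-beta readouts and 4 to 7 lower interferon-induced genes. MYC, at -0.37 with all libraries, ranged from -0.79 to 1.03 when each was left out, the last without Ctrl replicate 2. The cause of these shifts was not tested. Of 3132 alternative values for 242 named genes, 3110 kept their direction and their side of the threshold. OMA1 passed the threshold with upper-quartile scaling (adjusted p = 0.0492). Depth limits the genes with few counts in Ctrl, such as TNF, CCL20 and LTB, whose fold changes are uncertain.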
